A study of Mus musculus with 32 samples.

Results

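The comparison described here sets the epiblast of the mouse embryo at embryonic day 5.5 (E5.5) against mouse embryonic stem cells (ESCs) kept in 2i+LIF, in 4 of the 32 arrays of a study on the induction of the germ cell fate in culture. The 2 epiblast arrays carry the title "Epiblast, E5.5" and the 2 ESC arrays the title "2i+LIF ESCs". Genes with a known autosomal position were compared, since the sex of the embryos is unknown: 14878 of the 15497 genes tested. The epiblast was C57BL/6, of unknown sex, and its label names no transgene. The ESCs were male, C57BL/6, and carried the Blimp1-mVenus and stella-ECFP reporters, so the groups differ in reporter and possibly in sex as well as in being embryo or culture. Both groups come from an earlier series of 10 arrays that was analysed again with the 22 later ones, as do the epiblast-like cells (EpiLCs, male, C57BL/6, with the same reporters, 48 h after leaving 2i+LIF, 2 arrays) that are used below as a cultured counterpart of the epiblast. Another group of ESCs in 2i+LIF, titled "2i+LIF BP14A-ESCs" (2 of the later arrays), serves below as an alternative reference. These BP14A ESCs differ in line and background from the ESCs compared here. The labels give neither how the epiblast was dissected nor how many embryos were pooled. The cDNA of each sample was amplified by PCR before hybridisation, and the design calls the 2 arrays of a cell type biological duplicates.

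The 2i medium holds inhibitors of MEK and of GSK3, which block ERK signalling and release beta-catenin, and LIF acts through the receptor subunit gp130 on STAT3. Together they hold ESCs in the naive state, which resembles the epiblast before implantation. After implantation the epiblast shuts down the naive network, keeps Oct4, forms a polarised epithelium and becomes able to respond to the signals that later start gastrulation and specify germ cells.

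All values below are log2 values after quantile normalization across the 32 arrays, a step that sets every array to the same distribution and so hides any change in total RNA. A difference is the epiblast mean minus the ESC mean, with its standard error (SE) and the Benjamini-Hochberg adjusted p of a limma fit over all arrays and all tested genes. A gene was called where that p was under 0.05 and the difference was at least 2-fold, which is 1 on the log2 scale. With only 2 arrays in each group the precision is low. The p-values rest on a spread between duplicates that limma pooled over all 16 groups of the 32 arrays. They do not measure the spread of the epiblast and ESC duplicates alone. In a bulk sample, fewer cells that hold an RNA and less RNA per cell cannot be told apart.

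The arrays of a group were alike: over the tested autosomal genes Pearson's r was 0.976 between the epiblast arrays and 0.979 between the ESC arrays, and between 0.902 and 0.915 across the groups (a description, across genes). The labels were checked against markers. Of the epiblast markers, Fgf5, Otx2, Pou3f1 and Dnmt3b were higher in the epiblast and Pou5f1, which encodes Oct4, was high in all 4 arrays. The naive markers Klf4, Tfcp2l1, Esrrb, Zfp42 and Nanog were higher in the ESCs. Epiblast array 1 also held more RNA of visceral endoderm genes than epiblast array 2, with a sum of linear values over 19 such genes of 6.15e+03 against 1.69e+03 (1.44e+03 and 1.28e+03 in the ESC arrays), as described below. The 5' minus the 3' probe set of Gapdh, a measure of RNA integrity and labelling, was -0.72 and -0.07 in the epiblast arrays and -1.08 and -0.68 in the ESC arrays. Eif2s3y, a Y-linked gene, was at 8.9 and 8.94 in the epiblast arrays and at 10.05 and 10.25 in the ESC arrays. The X-linked Xist was at 6.44 and 6.01 in the epiblast and at 4.75 and 5.54 in the male ESCs.

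Of the 14878 autosomal genes, 1095 (7.36%) were higher and 1405 (9.44%) lower in the epiblast. At more than 8-fold, 137 genes were higher and 240 lower. The epiblast and ESC arrays of 2499 of the 2500 called genes did not overlap, but that also held for 58.6% of all tested genes. The median difference over all tested genes was -0.03, and the median absolute difference was 0.42. For 259 of the higher genes the ESC mean, and for 236 of the lower genes the epiblast mean, lay under the level of 4.05 used as a filter on dim genes, so that their differences rest on a dim signal in one group.

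**Figure D1:**
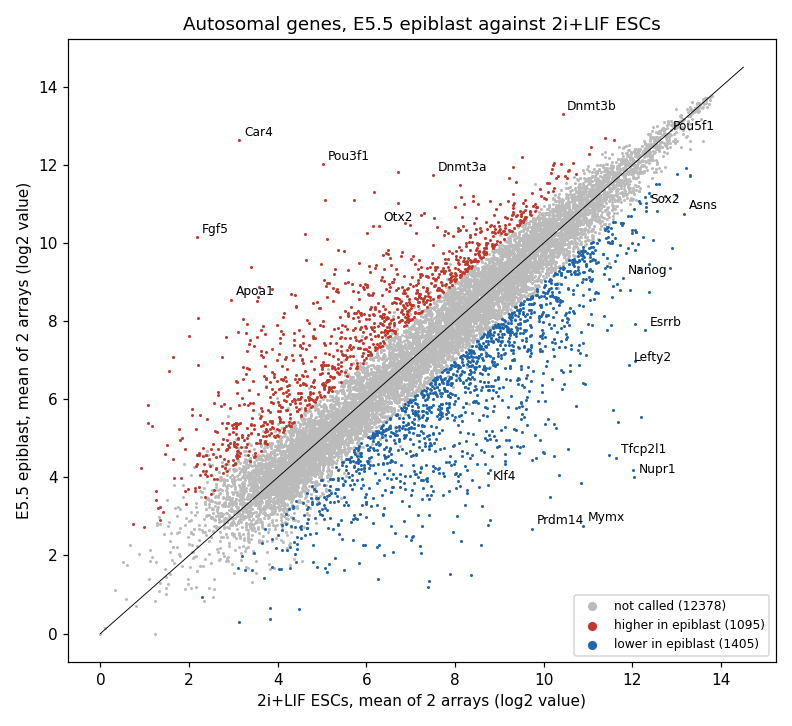
Mean log2 value of each of the 14878 tested autosomal genes in the 2 arrays of 2i+LIF ESCs (x axis) and in the 2 arrays of E5.5 epiblast (y axis). Red points are the 1095 genes higher in the epiblast, blue points the 1405 genes lower, grey points the genes not called, and the line marks equal values.

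The largest rise was that of Car4, which encodes a membrane-anchored carbonic anhydrase. It was at 12.55 and 12.7 in the epiblast arrays and at 3.71 and 2.56 in the ESC arrays, a difference of 9.49 (SE 0.35, adjusted p = 8.37e-13). The related Car14 stood at 11.03 and 11.18 against 5.64 and 5.8, a rise of 5.38. In the 48 h EpiLCs Car4 reached 11.67 and 12.34, but Car14 only 7.87 and 8.38, and the difference of Car14 between epiblast and EpiLCs was 2.98 (adjusted p = 2.87e-07). Among the other genes with the largest rises were Vrtn (5.63), Slc35d3 (5.97), Rgs2, a regulator of G protein signalling (5.44), Cxcl12, a chemokine (5.29), and Psmb8, an immunoproteasome subunit (5.87). Psmb8 was at 7.9 and 8.24 in the epiblast, 5.87 and 4.48 in the EpiLCs and 2.49 and 1.91 in the ESCs, so the embryo stood above both cultures.

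The largest fall was that of Mymx, known for its part in the fusion of muscle cells, from 10.93 and 10.86 in the ESC arrays to 3.26 and 2.25 in the epiblast arrays (-8.14, SE 0.46). Nupr1, a stress-induced nuclear protein, fell by 8.03 on the log2 scale, from 12.25 and 11.82 to 4.18 and 3.82. Nupr1 was still at 10.56 and 11.38 in the EpiLCs, so that its low level was found in the embryo and in neither of these cultures. Calcoco2 (-6.99), Xaf1 (-6.87), Accsl (-6.37) and Morc1 (-6.27) followed, with the naive genes described next. Among genes with bright probe sets the metallothioneins Mt1 (12.29 and 11.16 against 13.42 and 13.17) and Mt2 (12.35 and 11.09 against 13.32 and 13.25) were lower in the epiblast, with epiblast array 2 the lower of the pair in each case. Both metallothionein calls were lost when epiblast array 2 was left out (adjusted p = 0.296 and 0.275), and also without either ESC array (0.0756 to 0.146). The brain-type creatine kinase Ckb fell by 3.5, from 12.81 and 12.91 to 9.62 and 9.1.

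Of the 21 naive pluripotency genes on the list, all of them tested, 18 were lower in the epiblast, 1 was higher and 2 were not called, with a median difference of -3.89 against -0.03 for all genes. Members of this and the other lists were chosen with earlier results of these data known. A count therefore describes a list and is no test of it. List counts stand beside shares of 7.36% higher and 9.44% lower over all tested autosomal genes. These shares do not apply to list counts against the BP14A ESCs. With that reference 1416 of the 14878 tested autosomal genes were higher and 1582 lower. Tfcp2l1, a transcription factor of the naive network, was at 11.5 and 11.76 in the ESCs and at 4.18 and 4.83 in the epiblast, a difference of -7.13 (SE 0.28, adjusted p = 1.65e-12). Klf2, a Krüppel-like factor, went from 11.6 and 11.36 to 4.71 and 4.42 (-6.92). Prdm14, which represses differentiation in ESCs and is needed in germ cells, went from 9.67 and 9.79 to 2.2 and 3.17 (-7.05). The epiblast and ESC arrays of these genes were far apart and did not overlap. Non-overlap held for all 21 members and for 58.6% of all tested genes.

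The depth of the fall differed along the network. Nr5a2 (-6.28), Tcl1 (-5.84), Klf4 (-4.93), Esrrb (-4.51), Tbx3 (-3.89) and Spic (-3.84) fell steeply. Nanog, at the centre of the network, kept 8.94 and 9.25 in the epiblast arrays against 11.76 and 11.81 in the ESC arrays (-2.69, SE 0.45). Zfp42, known as Rex1, kept 8.69 and 8.52 against 11.64 and 11.43 (-2.93). So the epiblast arrays still held Nanog and Zfp42 well above the filter level, while Klf4, Klf2 and Tfcp2l1 lay near it. Fgf4 (-1.7), Klf5 (-2.31) and Dppa3, a maternal and germ cell factor (-2.34), fell less. Dppa5a (-0.98, adjusted p = 0.000112) and Tet2 (-0.6) missed the 2-fold limit, and Nlrp4c was the member that rose (7.21 and 6.79 against 4.36 and 4.33). The fall of Manba rested on ESC arrays that were 1.95 apart (8.28 and 10.23), and its call was lost when any of 3 arrays was left out (adjusted p between 0.0593 and 0.153).

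For 6 of the 21 naive genes the epiblast also lay below the 48 h EpiLCs, a comparison that shares the epiblast arrays and in which 3.35% of all tested genes were lower and 1.38% higher. Klf2 was at 6.31 and 7.23 in the EpiLCs (-2.21 for epiblast minus EpiLC, adjusted p = 7.16e-05). Gbx2 was at 6.79 and 7.72 in the EpiLCs, 7.25 and 6.98 in the ESCs and 4.84 and 4.36 in the epiblast. Gbx2 was thus low in the embryo alone among these 3 groups. Tfcp2l1 (-1.02), Zfp42 (-1.06), Dppa3 (-1.28) and Fgf4 (-1.05) made up the rest.

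The 13 genes listed for core pluripotency moved little as a group, with a median difference of 0.24, 4 members higher and 1 lower. Pou5f1 was at 12.61 and 12.94 in the epiblast and 12.82 and 12.78 in the ESCs, so that the groups overlapped and the difference was -0.02 (SE 0.14). Sox2, its partner on DNA, was the member that fell, from 12.39 and 12.19 to 10.92 and 10.89 (-1.39, adjusted p = 1.62e-05). Foxd3, a forkhead factor of the epiblast, rose from 7.04 and 6.51 to 10.04 and 9.3 (2.89), and Lin28a, which blocks maturation of let-7 microRNAs, rose from 8.79 and 8.16 to 10.71 and 10.57 (2.17). Utf1 (1.79) and Zfp281 (1.07) were the other risers, and Zfp281 lay close enough to the 2-fold limit to lose its call on the values as deposited (0.93). Foxd3 also lay above the EpiLCs (1.55, adjusted p = 0.0347).

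Most formative and early epiblast genes on the list rose: 17 of 19 tested members were higher and none was lower, with a median difference of 3.30. This list too was chosen with earlier results of these data known. Fgf5, the classical marker of the epiblast after implantation, was at 10.11 and 10.19 in the epiblast arrays and at 2.09 and 2.28 in the ESC arrays, a difference of 7.97 (SE 0.41, adjusted p = 4.26e-11). Pou3f1, known as Oct6, was at 12.01 and 12.01 against 5.25 and 4.79 (6.99). Otx2, which directs Oct4 to new enhancers when naive cells leave that state, was at 10.18 and 10.69 against 6.0 and 6.57 (4.15). In each case the lower epiblast array lay far above the higher ESC array. Crabp2 (4.31), Sall2 (4.29), Fzd2 (3.3), the neural and epiblast factors Zic2 (2.38), Zic5 (2.24) and Sox11 (2.32), and Lin28b (2.22) rose as well. Sox4 rose by 5.13 on its brightest probe set, but its 8 probe sets averaged 0.90, below the 2-fold limit. Tcf15 (0.5, SE 0.46) and Trim71 (0.48, SE 0.35) were not called.

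In the 48 h EpiLCs Fgf5 stood at 9.76 and 9.24 and Pou3f1 at 11.79 and 11.98, and neither was called against the epiblast. Otx2 at 8.89 and 8.99 was lower in EpiLCs than in the epiblast (1.5, adjusted p = 0.0195), and Tcf15 at 9.16 and 8.92 was higher there (-1.6). With Car14, these were the 3 members of the list called between epiblast and EpiLCs.

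**Figure D2:**
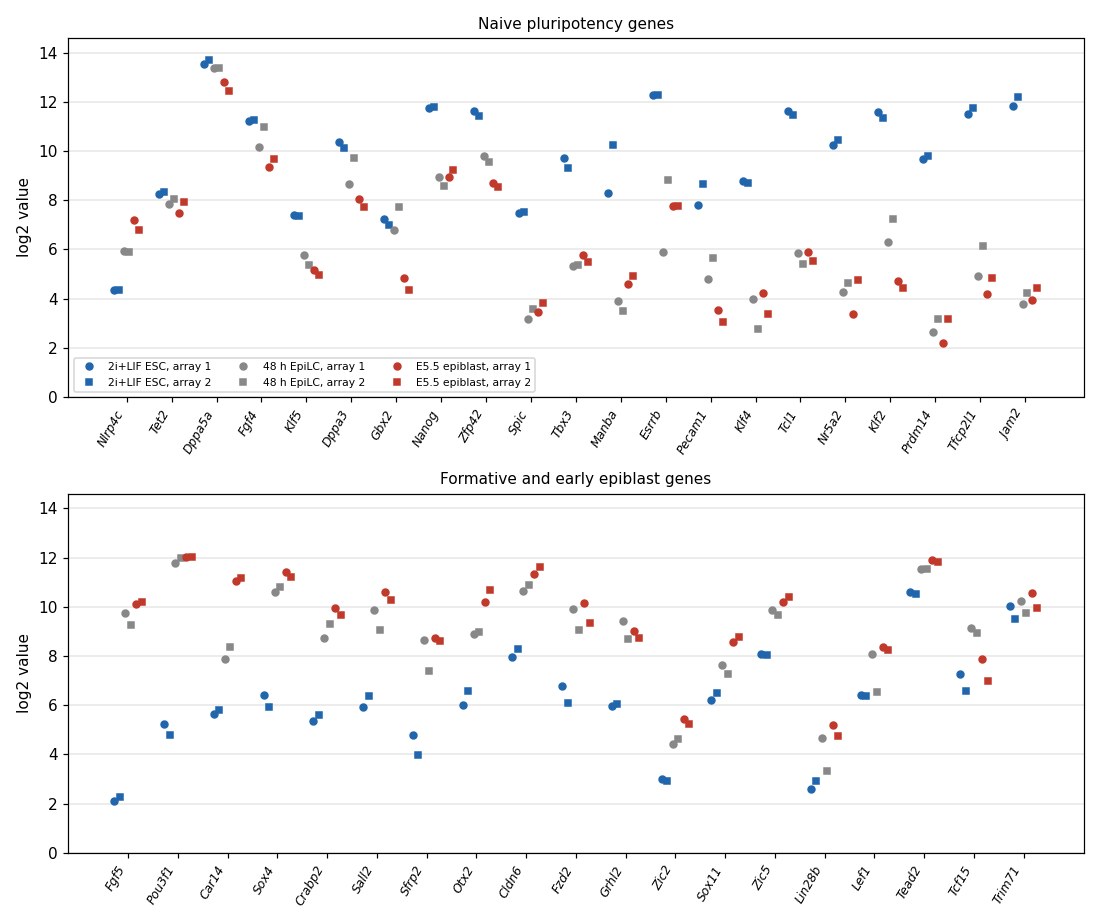
Log2 values of the 21 naive pluripotency genes (top) and the 19 tested formative and early epiblast genes (bottom) in each array: blue, 2i+LIF ESCs; grey, 48 h EpiLCs; red, E5.5 epiblast; circles, array 1; squares, array 2. Genes are ordered by the difference between epiblast and ESCs, and the red and blue points are well apart for most genes, as for Jam2 (-7.84) and Fgf5 (7.97).

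Genes of the LIF pathway were lower in the epiblast or not called: 5 of 13 members fell and none rose. Socs3, the feedback inhibitor that STAT3 induces, was at 6.0 and 4.96 in the epiblast and 10.31 and 9.88 in the ESCs (-4.61, SE 0.44). Bcl3, another STAT3 target, went from 9.26 and 9.0 to 4.83 and 4.38 (-4.52). The signal chain itself was also lower: Stat3 (-2.44), the receptor subunit gene Lifr (-1.86) and Il6st, which encodes gp130 (-2.4), all fell. Lifr was at 8.4 and 8.59 in the epiblast but at 7.18 and 7.38 in the EpiLCs, and so took a level between ESCs and EpiLCs. The call of Il6st was not made on the mean of its 4 probe sets (-0.45). Junb, Pim1, Jak1 and Osmr were not called.

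Among FGF ligands and receptors 3 of 12 tested genes rose and 2 fell, where 7.36% of all genes were higher and 9.44% lower. Beside Fgf5, Fgf15 rose from 5.57 and 4.97 to 9.0 and 9.39 (3.93) and Fgf8 from 2.66 and 3.51 to 6.41 and 6.46 (3.35), while the naive ligand Fgf4 fell and Fgf17 fell by 1.56. The receptor Fgfr1 differed by 0.72, under the 2-fold limit, and Fgfr2 (0.09), Fgfr3 (0.05) and Fgfr4 (0.3) were not called. On the mean of all probe sets 1 member was lower.

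Of 18 ERK target genes, whose pathway 2i blocks, 6 rose and none fell, with a median difference of 0.82. The ERK phosphatases Dusp4 (9.68 and 9.84 against 6.69 and 6.91, a rise of 2.96) and Dusp6 (9.32 and 8.19 against 6.01 and 4.69, a rise of 3.4) led with Myc (9.39 and 9.47 against 6.52 and 6.57, a rise of 2.88). Spry1, an inhibitor of receptor tyrosine kinase signalling, rose by 1.4. The other 12, Etv4 (0.9), Etv5 (0.25), Spry2 (0.75) and Fos (-0.1) among them, were not called. The Dusp6 call was lost without either of 2 arrays, with an adjusted p of 0.0613 without epiblast array 1 and 0.0668 without ESC array 2. Phlda1 (1.15) lost its call in the same settings, and Egr1 (1.14) did so without ESC array 2, so that without that array 3 members were called. Egr1 also turned on the ESC line: it was at 4.12 and 3.72 in these ESCs, 5.15 and 4.98 in the epiblast, 10.26 and 10.06 in EpiLCs, and at 12.24 and 12.49 in the BP14A ESCs of the later arrays, which would give a difference of -7.30. Against the BP14A ESCs 4 of the ERK target genes were lower.

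Of 13 tested WNT target genes 4 fell and 3 rose, with a median difference of -0.47. Sp5, a direct target of beta-catenin, went from 10.21 and 9.84 to 4.91 and 5.81 (-4.66, SE 0.48) and Cdx1 from 7.82 and 7.9 to 3.51 and 3.78 (-4.21). The feedback inhibitors Notum, at 6.46 and 6.5 against 9.75 and 9.68 (-3.24), and Axin2, at 7.12 and 6.61 against 10 and 8.97 (-2.62), fell too. The DNA-binding partners of beta-catenin went the other way: Tcf7l1, which represses targets without the signal, rose by 1.3 and Lef1, which activates them, by 1.9 (SE 0.68, adjusted p = 0.0425). The Lef1 call was lost when any of the 4 arrays was left out (adjusted p between 0.117 and 0.144), and that of the third riser, Nkd2 (1.13), without either epiblast array or ESC array 1, which left 1 riser. Tcf7l1 stood no higher than in the BP14A ESCs (-0.10).

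Among 11 WNT ligands and antagonists, the antagonist Sfrp2 rose from 4.79 and 3.99 to 8.72 and 8.62 (4.28) and Sfrp1 fell from 10.83 and 10.7 to 9.57 and 9.02 (-1.46). Wnt3, a ligand that later patterns the embryo, was low in all 4 arrays, between 2.80 and 3.61, and Wnt5b fell by 1.32. The antagonist Dkk1 did not differ by the test from ESCs (0.4) but lay above EpiLCs (1.65, adjusted p = 0.0127). The antagonist Frzb was not called (0.48), though its other probe set, at 5.22 and 6.22 in the epiblast and 2.32 and 2.31 in the ESCs, was called (3.41, adjusted p = 0.000229 by limma) when probe sets were chosen over the 4 arrays compared.

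The 250 bases before the start sites of Sp5 (chr2:70474673-70474922, plus strand) and Sfrp2 (chr3:83766071-83766320, plus strand) are shown because these genes moved in opposite directions within one pathway. They come from RefSeq on GRCm38.p6. Capitals mark CTTTGAT, the sequence bound by TCF factors, in Sp5, and ATTTGCAT, the octamer bound by Oct factors, in Sfrp2.
Sp5: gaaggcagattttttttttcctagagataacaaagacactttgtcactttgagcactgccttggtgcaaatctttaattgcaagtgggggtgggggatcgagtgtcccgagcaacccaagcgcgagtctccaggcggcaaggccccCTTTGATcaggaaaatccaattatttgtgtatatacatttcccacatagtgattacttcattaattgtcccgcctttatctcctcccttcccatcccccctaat
Sfrp2: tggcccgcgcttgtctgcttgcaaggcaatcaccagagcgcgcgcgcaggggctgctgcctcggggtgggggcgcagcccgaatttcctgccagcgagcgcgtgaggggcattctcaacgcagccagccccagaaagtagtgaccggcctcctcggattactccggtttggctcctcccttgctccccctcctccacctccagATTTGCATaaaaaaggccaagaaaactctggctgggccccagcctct
On either strand, CTTTGAT was found in 2.46% of the 15109 upstream windows of tested genes, in 3.06% of those of the lower genes and in 1.5% of those of the higher genes. The octamer was found in 1.2% of all windows, in 2.29% of those of the higher genes and in 1.5% of those of the lower genes. A match of letters is a description and not evidence of binding.

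For Nodal the inhibitors fell while the ligand was not called. Nodal was at 7.51 and 6.21 in the epiblast and 8.76 and 7.3 in the ESCs, with array 2 lower than array 1 in each group (-1.17, SE 1.02, adjusted p = 0.454). Lefty2, a secreted inhibitor and target of Nodal, went from 11.77 and 12.09 to 6.47 and 7.26 (-5.07) and Lefty1 from 10.84 and 11.08 to 7.43 and 6.84 (-3.82). The EpiLCs held Lefty1 at 11.75 and 12.51, so the epiblast was -5.0 on the log2 scale against them (adjusted p = 2.11e-10), below both cultures. Of the 12 ligands, receptors and processing enzymes, the ligand Gdf3 (-2.15) and the convertase Pcsk6 (-1.65) fell and none rose, where 9.44% of all genes were lower. Of the 11 effectors and targets, Skil, an inhibitor of SMAD proteins, was the one that rose (11.65 and 11.69 against 9.49 and 8.92, 2.46). Smad2 (0.11), Smad3 (-0.02) and Foxh1 (0.71) were not called.

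Of the BMP genes, Id1, Id3 and Bmp4 stood above both cultures in the embryo. Id1, an inhibitor of DNA binding that BMP signals induce, was at 10.3 and 10.2 in the epiblast, 7.94 and 7.72 in the ESCs and 7.02 and 7.24 in the EpiLCs. The differences of Id1 were 2.42 from ESCs (adjusted p = 8.46e-09) and 3.12 from EpiLCs (adjusted p = 2.81e-09). Id3 was at 11.49 and 11.64, 9.49 and 9.25, and 7.5 and 9.36 in the same order (2.2 and 3.14). The ligand Bmp4, made at this stage in the extraembryonic ectoderm that borders the epiblast, was at 8.23 and 7.95, 6.09 and 6.6, and 5.08 and 5.53 (1.75 and 2.79). The epiblast arrays of Id1, Id3 and Bmp4 lay above every array of the other 2 groups. In all, 4 of the 18 BMP genes rose and 2 fell against ESCs, and 5 were higher and none lower against EpiLCs. Over all genes 7.36% rose and 9.44% fell against ESCs. Id4 was the largest fall (9.35 and 9.32 to 5.14 and 5.34, -4.09), and Bmp7 fell by 1.41. Id2 was at 4.02 and 7.14 in the epiblast arrays and was not called (2.69, SE 1.65).

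The DNA methyltransferases that set new methylation rose. Dnmt3b was at 13.19 and 13.39 in the epiblast and 10.68 and 10.16 in the ESCs (2.87, SE 0.61, adjusted p = 0.00115). Dnmt3a was at 11.65 and 11.83 against 7.49 and 7.53 (4.23, adjusted p = 6.74e-10). Their cofactor Dnmt3l went down, from 11.29 and 10.93 to 10.42 and 9.63 (-1.09), just past the limit. That call was lost without epiblast array 2 or ESC array 1, and the direction was the opposite against the BP14A ESCs (1.33). The maintenance enzyme Dnmt1 was at 11.33 and 11.3 against 11.31 and 11.55 and Uhrf1, which recruits it, differed by -0.12 (SE 0.69), and neither was called. Tet1, which oxidises methylcytosine, differed by -0.66 and was not called. Zfp57, which keeps methylation at imprinted regions, fell by 1.57, and Mbd2, which binds methylated DNA, was lower on its brightest probe set (-1.89) but not on its other one (0.23), and missed the 2-fold limit on their mean (-0.83).

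Of 20 genes of histone modification, 1 rose and 4 fell, and 15 were not called, where 7.36% of all genes were higher and 9.44% lower. Ehmt1, the partner of the histone H3 methyltransferase G9a, rose by 1.21 (adjusted p = 0.000557), a call that was lost without ESC array 1. The Polycomb subunits Mtf2 (-1.22) and Suz12 (-1.27) and the demethylase Kdm3a (-1.5) fell, and Ezh2 (-0.47) and Eed (-0.66) had lower values but missed the 2-fold limit. The Suz12 call was lost without epiblast array 1 (adjusted p = 0.206) and without ESC array 2 (0.28). On the mean of all probe sets of each gene 2 members rose and 2 fell: Mtf2 (-0.51, adjusted p = 0.177) and Suz12 (-1.03, adjusted p = 0.123) were not called. One bright probe set of Mtf2 was at 9.29 and 10.07 in the epiblast and 9.68 and 10.03 in the ESCs.

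Of 11 tested genes of germ cell specification 8 fell and none rose, with a median difference of -2.34. Prdm1, which encodes Blimp1, was at 4.65 and 3.51 in the epiblast and 7.81 and 8.21 in the ESCs (-3.92), and Tfap2c at 7.57 and 7.84 against 9.98 and 10 (-2.29). Unlike Prdm14 and Prdm1, Tfap2c was above the EpiLCs in the epiblast (5.47 and 6.91, difference 1.51, adjusted p = 0.00241). Kit, the receptor of stem cell factor, fell by 3.5, and Ifitm3, known as Fragilis, also fell (-2.08). The ESCs carry a Blimp1-mVenus and a stella-ECFP transgene, and whether the probe sets of Prdm1 and of Dppa3, which encodes Stella, read RNA of these transgenes was not tested.

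Genes of later germ cells and meiosis, in contrast, held 6 risers and 1 fall among 17 tested, with a median difference of 0.41. Slc25a31, a germ cell carrier of adenine nucleotides, was at 7.74 and 7.42 in the epiblast and 3.46 and 3.62 in the ESCs (4.04, adjusted p = 3.54e-08). Mael, of the piRNA pathway, was at 8.12 and 8.59 against 5.59 and 5.71 (2.71). Sycp3, of the synaptonemal complex, was at 8.89 and 9.19 against 6.15 and 6.63 (2.65), and Sycp1, of the same complex, at 4.84 and 5.0 against 3.7 and 3.72 (1.21). The arrays of these 4 genes did not overlap between the groups, which held for 12 of the 17 members and for 58.6% of all tested genes. Ddx4, the germ cell helicase Vasa, rose by 1.96 and Stk31 by 1.62. The EpiLCs held the same 6 genes at levels the test did not tell from the epiblast, with differences between -0.93 (Mael) and 0.92 (Slc25a31). Tex14, of intercellular bridges, went from 8.85 and 9.14 to 4.8 and 4.79 (-4.2). Dazl (0.37), Stra8 (0.15), Hormad1 (0.42) and Piwil2 (0.34) were not called.

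The 250 bases before the start site of each of the 6 risers are shown because they share an E-box, CACGTG, which is the same on both strands and is marked in capitals. They lie at chr3:40708621-40708870 (plus strand, Slc25a31), chr1:166238745-166238994 (minus, Mael), chr10:88459337-88459586 (plus, Sycp3), chr13:112652311-112652560 (minus, Ddx4), chr6:49395289-49395538 (plus, the first of 2 start sites of Stk31) and chr3:102936101-102936350 (minus, Sycp1) of GRCm38.p6, as RefSeq places the start sites.
Slc25a31: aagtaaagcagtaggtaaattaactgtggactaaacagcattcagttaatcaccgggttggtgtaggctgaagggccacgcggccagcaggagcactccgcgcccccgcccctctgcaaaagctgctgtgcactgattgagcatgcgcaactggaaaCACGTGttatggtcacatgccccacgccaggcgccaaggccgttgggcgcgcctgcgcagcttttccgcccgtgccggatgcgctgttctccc
Mael: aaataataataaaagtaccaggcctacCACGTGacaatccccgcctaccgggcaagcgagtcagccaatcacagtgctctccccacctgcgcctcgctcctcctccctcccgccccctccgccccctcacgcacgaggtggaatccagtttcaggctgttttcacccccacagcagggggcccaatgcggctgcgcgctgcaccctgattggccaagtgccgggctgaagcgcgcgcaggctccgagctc
Sycp3: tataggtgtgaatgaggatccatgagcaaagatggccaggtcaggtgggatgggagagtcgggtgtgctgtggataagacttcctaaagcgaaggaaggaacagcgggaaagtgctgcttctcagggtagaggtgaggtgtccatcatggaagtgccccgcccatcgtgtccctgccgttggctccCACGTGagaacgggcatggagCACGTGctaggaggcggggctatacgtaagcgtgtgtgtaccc
Ddx4: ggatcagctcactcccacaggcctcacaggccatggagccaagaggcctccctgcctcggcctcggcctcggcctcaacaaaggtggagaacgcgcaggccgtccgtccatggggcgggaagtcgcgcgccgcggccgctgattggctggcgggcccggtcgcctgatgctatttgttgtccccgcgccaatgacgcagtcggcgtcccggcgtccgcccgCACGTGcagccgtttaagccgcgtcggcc
Stk31: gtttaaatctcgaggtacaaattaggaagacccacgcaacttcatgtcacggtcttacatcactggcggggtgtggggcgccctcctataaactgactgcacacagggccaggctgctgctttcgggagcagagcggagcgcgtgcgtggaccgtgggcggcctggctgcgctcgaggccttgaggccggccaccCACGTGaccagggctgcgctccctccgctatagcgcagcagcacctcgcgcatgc
Sycp1: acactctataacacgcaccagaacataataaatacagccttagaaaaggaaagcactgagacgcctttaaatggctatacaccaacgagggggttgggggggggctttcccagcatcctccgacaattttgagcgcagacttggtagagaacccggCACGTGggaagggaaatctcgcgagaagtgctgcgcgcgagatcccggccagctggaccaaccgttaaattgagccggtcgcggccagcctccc
CACGTG was present for all 6 of them, for 4 of the 9 members that were not called and have a window, and not for Tex14. Of all 11892 tested autosomal genes with a window, 9.38% held it, and of the higher genes 10.8%. In Sycp3 it occurred at 2 places, 64 and 43 bases before the start. The motif was among 8 searched, and the sequence was looked at with the levels known, so this is a description of these 17 genes.

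Of 20 imprinted genes tested 7 rose and 4 fell (2 against the BP14A ESCs). Grb10, a growth inhibitor, was at 10.33 and 10.56 in the epiblast and 6.91 and 7.05 in the ESCs (3.47), Igf2, a growth factor, at 8.32 and 8.09 against 5.85 and 5.61 (2.47), and Cdkn1c, a cell cycle inhibitor, at 8.45 and 8.3 against 6.04 and 6.17 (2.27). The rise of Grb10 was that of its brightest probe set, and its other probe sets differed by -0.16 and 0.02. Ndn (2.46) and Magel2 (1.53), neighbours in the Prader-Willi region, and Gnas (1.25) rose as well. Plagl1, a zinc finger factor, had one of the largest falls of all genes, from 11.99 and 12.39 to 5.76 and 5.32 (-6.65, adjusted p = 1.13e-10), and was at 6.76 and 5.49 in the EpiLCs. Slc22a18 (-2.46) and Impact (-1.61) fell. Sgce fell by 1.84, but its call was lost without epiblast array 2 (adjusted p = 0.0521) and it was not below the BP14A ESCs (0.82). Peg3 (-0.51), Mest (0.7) and Meg3 (-0.41) were not called. Parental alleles cannot be told apart on these arrays.

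Genes of epithelia and cell junctions rose in the epiblast, 11 of 22 tested, and 2 fell; on the mean of all probe sets of each gene 7 rose. Podxl, which encodes the podocalyxin that lines the lumen, was at 10.67 and 10.74 in the epiblast, 7.23 and 7.23 in the ESCs and 9.1 and 9.41 in the EpiLCs (3.48 from ESCs and 1.45 from EpiLCs, both called). Esrp1, a splicing factor of epithelial cells, was at 10.64 and 10.88 against 7.11 and 7.51 in the ESCs (3.45), and Krt18, a keratin, at 11.24 and 11.14 against 8.16 and 8.12 (3.05). The tight junction genes Cldn6 (3.37), Cldn7 (1.54), Tjp1 (1.19) and Epcam (1.16), an adhesion gene, rose too, though Epcam not without ESC array 1. Cdh1, which encodes E-cadherin, was high in all 4 arrays, between 12.29 and 12.55, and was not called (-0.19). Cdh2, N-cadherin, was not called either (-0.31). Vim, which encodes vimentin, went down from 12.11 and 12.13 to 9.99 and 9.96 (-2.14), and Cldn4 from 10.28 and 10.28 to 8.88 and 8.81 (-1.44). On the mean of all probe sets of a gene, 7 epithelial members were called higher in place of 11, with Grhl2 (0.71) and Cgn (0.50) among those lost.

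The basement membrane list was split, with 3 risers and 4 falls among 16. The collagen IV chains Col4a1 (9.32 and 8.6 against 5.3 and 6.07, 3.28) and Col4a2 (8.81 and 8.12 against 4.73 and 4.84, 3.68) and the integrin Itga3 (2.12) rose. Fibronectin, Fn1, went from 12.84 and 12.95 to 9.69 and 10.07 (-3.02) and nidogen 1, Nid1, from 10.67 and 10.57 to 7.69 and 6.87 (-3.34). Lama1, a laminin chain, was at 8.59 and 7.75 in the epiblast and 8.82 and 9.05 in the ESCs without a call, but was 3.63 above the EpiLCs (adjusted p = 2.29e-06). Epiblast array 1, which held more visceral endoderm RNA, was the higher of the pair for Col4a1, Col4a2, Nid1 and Lama1, and the part of that RNA in these levels was not tested.

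Genes of the primitive streak and mesoderm rose in 7 of 20 cases, where 7.36% of all genes were higher. Lhx1 was at 5.78 and 5.91 in the epiblast and 0.31 and 1.85 in the ESCs (4.76), Evx1 at 6.21 and 6.4 against 4.82 and 4.83 (1.48) and Mixl1 at 4.94 and 5.68 against 3.65 and 2.48 (2.24). Eomes, a T-box factor of streak and of extraembryonic ectoderm, was at 10.13 and 10.64 against 8.18 and 7.97 (2.31, adjusted p = 2.71e-05). Against the EpiLCs too 7 members were higher in the epiblast, among them Eomes (3.48), Lhx1 (4.2) and Gsc (2.21), and none was lower. The Mixl1 call was lost without epiblast array 2 (adjusted p = 0.162) and without ESC array 2 (0.214). Mesp1 (0.36), Tbx6 (-0.25), Kdr (-0.05) and Snai1 (0.56), markers of later mesoderm or of the epithelial to mesenchymal change, were not called. Against the BP14A ESCs 3 members were lower, where 1582 of all 14878 genes were. Nkx1-2 was the member that fell against the 2i+LIF ESCs compared here (10.08 and 9.74 to 5.49 and 4.41, -4.96).

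Of 14 neural genes 3 (21.4%) fell and none rose, where 9.44% of all genes were lower. Sox1, of early neural plate, was at 1.93 and 1.45 in the epiblast, 4.93 and 5.22 in the ESCs and 5.04 and 4.73 in the EpiLCs, so that the embryo was below both cultures (-3.39 and -3.2). Hesx1 (-2.96) and Olig2 (-2.8) fell, and Olig2 was in turn lower in the BP14A ESCs than in the epiblast (3.74). Pax6 (0.48) and Nes (0.85) were not called.

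Genes of amino acid supply and of the integrated stress response, known as targets of ATF4, were mostly lower in the embryo than in the ESCs, and mostly lower than in the EpiLCs. Of the 17 tested, 13 fell against ESCs and none rose, with a median difference of -1.14. Asns, asparagine synthetase, was at 10.7 and 10.8 in the epiblast, 13.05 and 13.28 in the ESCs and 12.2 and 12.43 in the EpiLCs. Its differences were -2.41 (adjusted p = 1.32e-10) and -1.57 (adjusted p = 4.25e-07). Trib3, a pseudokinase, was at 7.38 and 7.07, 10.15 and 9.76, and 10.92 and 10.91 in that order (-2.73 and -3.69).

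Chac1, which degrades glutathione, was at 5.92 and 6.45 in the epiblast, 8.92 and 8.9 in the ESCs and 11.17 and 10.97 in the EpiLCs (-2.72 and -4.88), and Ddit3, known as CHOP, at 6.12 and 5.74, 8.63 and 8.19, and 7.86 and 8.39 (-2.48 and -2.2). Atf3 fell the most of the list, to 3.88 and 4.14 from 6.89 and 7.45 (-3.16), with 9.16 and 8.88 in EpiLCs. Against the EpiLCs 12 of the 17 were lower and none was higher, where 3.35% of all genes were lower. The amino acid transporter genes Slc3a2 (-1.06), Slc7a5 (-1.12) and Slc7a11 (-1.14) and the enzymes Psat1 (-1.01), Psph (-1.14), Cth (-1.8) and Aldh18a1 (-1.49) fell less. Atf4 itself (-0.78, adjusted p = 0.000857) missed the 2-fold limit, and Phgdh (0.57), Shmt2 (0.5) and Mthfd2 (-0.45) were not called. The probe set of Shmt2 that is brightest over the 4 arrays compared went the other way (-0.7, adjusted p = 0.0131 by limma). It missed the 2-fold limit too. Leaving out each array in turn left 10 or 11 of the 13 calls. Being embryonic and being outside culture medium cannot be told apart in this design.

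**Figure D3:**
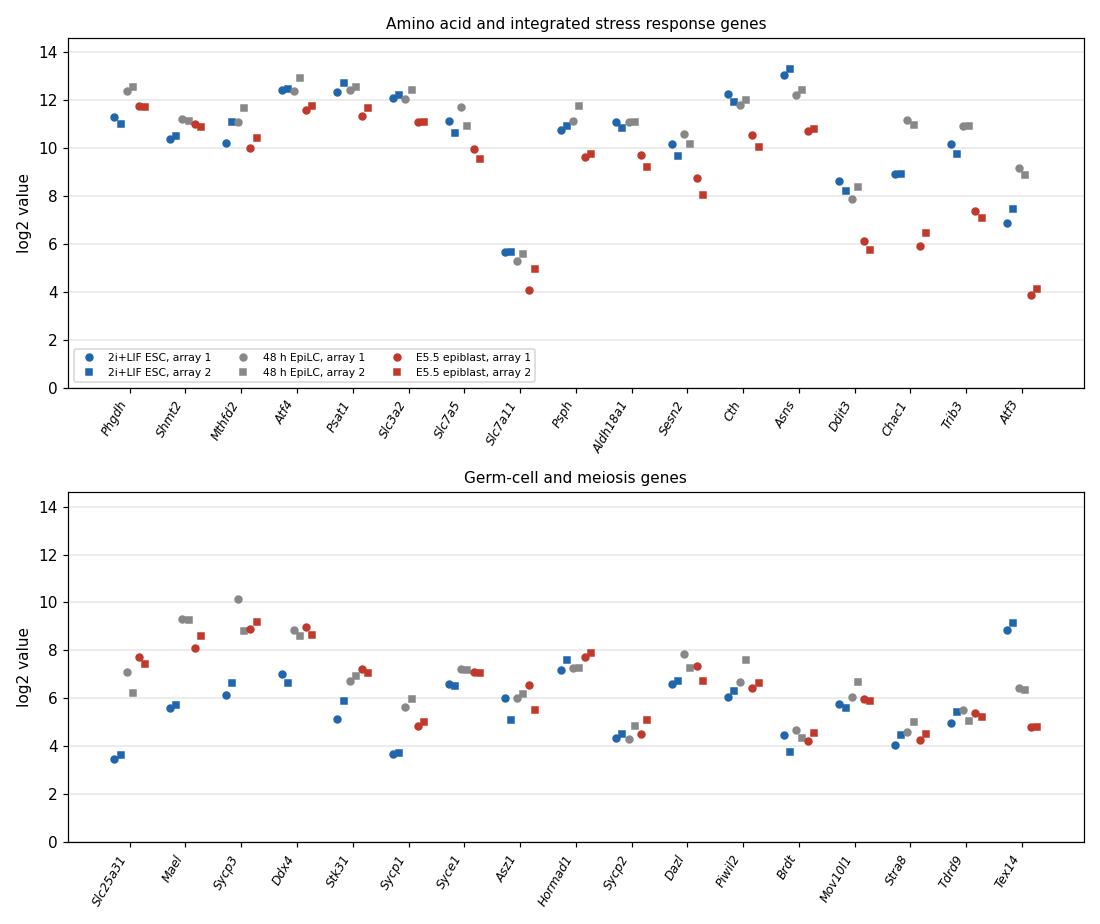
Log2 values of the 17 genes of amino acid supply and integrated stress response (top) and the 17 tested germ cell and meiosis genes (bottom) in each array: blue, 2i+LIF ESCs; grey, 48 h EpiLCs; red, E5.5 epiblast; circles, array 1; squares, array 2. In the top panel the red points of Asns, Ddit3, Chac1, Trib3 and Atf3 lie below the blue and the grey ones, and in the bottom panel the blue points of Slc25a31, Mael, Sycp3, Ddx4 and Sycp1 lie below the red ones.

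Immediate early genes are switched on quickly by growth factors and by stress. Of 15 such genes and heat shock genes 3 fell (Atf3, Nr4a1 with -1.88 and Klf6 with -1.27; Nr4a1 was not called without epiblast array 2 or ESC array 1) and Egr1 rose against ESCs, and 8 were lower than in EpiLCs. The Egr1 rise was lost without ESC array 2, as given above. Jun, which was not called against ESCs, was at 5.11 and 4.92 in the epiblast, 4.16 and 3.95 in the ESCs and 6.84 and 6.35 in the EpiLCs. Against the BP14A ESCs 9 members were lower and none was higher, where 1582 of all 14878 genes were lower and 1416 higher. The heat shock genes Hspa1a (0.7), Hspa1b (-0.51) and Dnajb1 (-0.03) were not called.

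Glycolytic and hypoxia genes were split, with 5 higher and 3 lower of 20. On the mean of all probe sets 1 was lower, and against the BP14A ESCs 8 were higher and 5 lower. The lactate carrier Slc16a3 rose from 7.41 and 6.34 to 10.84 and 10.16 (3.62) and the liver-type phosphofructokinase Pfkl from 10.65 and 10.1 to 12.28 and 11.78 (1.65). The platelet-type Pfkp went the other way, from 11.58 and 11.75 to 8.69 and 9.23 (-2.7), on its brightest probe set, but not on the mean of its 3 (-0.49). The hexokinase Hk1 (-1.77) and the glucose carrier Slc2a3 (-1.29) fell. Without epiblast array 1 or ESC array 2 the Pfkl call was lost. The hypoxia targets Bnip3 (2.82), Egln3 (1.86) and Ankrd37 (1.63) rose, and Bnip3 lost its call without epiblast array 2 (adjusted p = 0.135) and without ESC array 1 (0.119). Ldha, Pkm, Aldoa and Pgam1 were between 12.47 and 13.50 in all 4 arrays and were not called.

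Of 22 genes of mitochondrial respiration none rose and 3 (13.6%) fell, where 9.44% of all genes were lower. The 3 are Cox7a1 (-2.31), Ppargc1a (-1.11) and Esrrb, a naive factor that is also on this list. The Cox7a1 call was lost without epiblast array 2 or ESC array 1, and that of Ppargc1a without epiblast array 1 or ESC array 2. The subunits of the respiratory complexes apart from Cox7a1 were not called and differed between -0.61 (Sdha) and 0.25 (Cycs, cytochrome c). The median difference of the 22 genes was -0.3, against -0.03 for all genes. Without the fold limit 9 of the 22 were lower, where 2326 of all 14878 genes were. None of 16 cholesterol synthesis genes was called against ESCs at an adjusted p under 0.05 and 2-fold, with 7 of them under that adjusted p alone and 9 under an unadjusted p of 0.05 by limma. Against the EpiLCs 5 of the 16 were lower in the epiblast and none was higher.

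Cell cycle genes mostly did not pass the test (14 of 21), with 4 higher and 3 lower, where 7.36% of all genes were higher and 9.44% lower. The inhibitor genes Cdkn1a (11.31 and 10.45 to 7.91 and 6.96, -3.45) and Cdkn2b (7.43 and 6.66 to 2.03 and 2.96, -4.55) fell, and Cdkn2b was below the EpiLCs too (-4.12). Ccne1, cyclin E1, rose by 1.22 and Mycl by 2.45. Of 16 p53 and cell death genes, those of the BH3-only proteins Bim (Bcl2l11, 8.85 and 9.16 against 6.51 and 6.66, 2.42) and Noxa (Pmaip1, 11.56 and 11.19 against 10.17 and 9.65, 1.46) rose, as did Bmf (1.01). Without epiblast array 1 or ESC array 2 the Bmf difference was below 2-fold and the Pmaip1 call was lost (adjusted p = 0.0546 and 0.0655), which left 1 call. Trp53inp1 fell by 1.8. Mdm2, a p53 target, differed by -0.76.

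**Figure D4:**
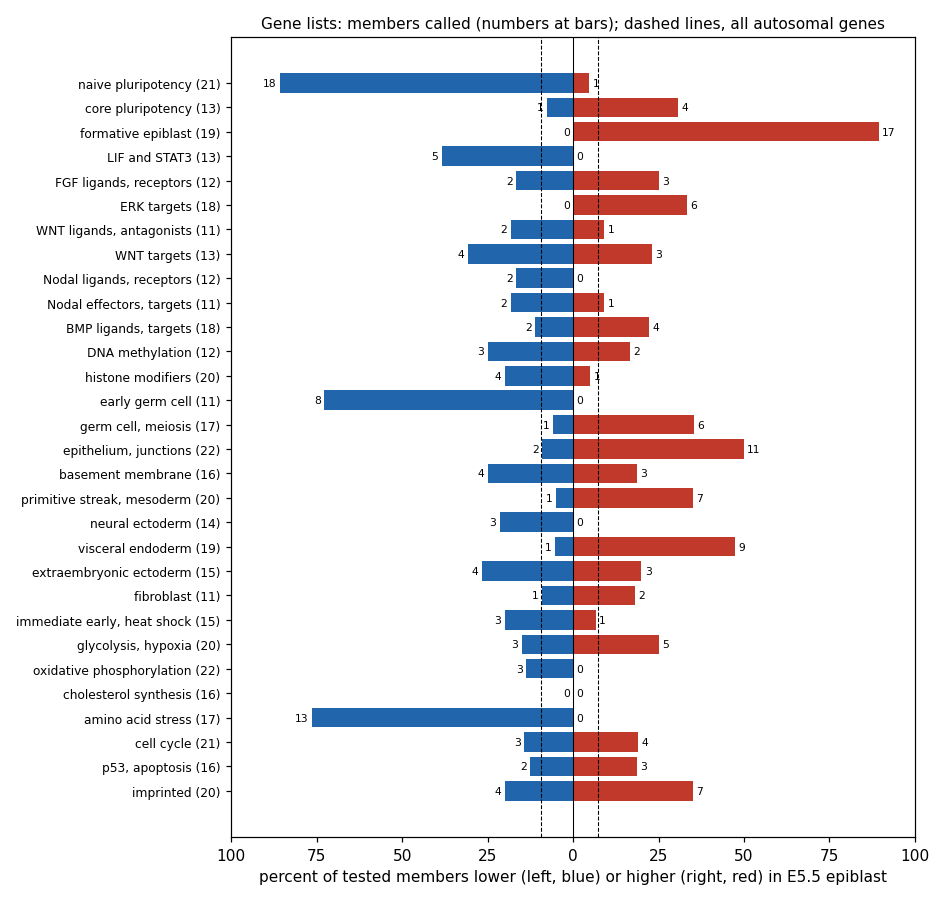
Percent of the tested members of each of the 30 gene lists that were higher (red, right) or lower (blue, left) in E5.5 epiblast than in 2i+LIF ESCs, with the number of tested members in brackets and the number called at each bar. Dashed lines mark the shares over all autosomal genes, 7.36% higher and 9.44% lower. Naive pluripotency, early germ cell and amino acid stress genes extend farthest to the left and formative epiblast genes farthest to the right.

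The epiblast at this stage is wrapped in visceral endoderm and borders the extraembryonic ectoderm, and markers of both were measured. Of 19 visceral endoderm genes 9 were higher than in ESCs and 1 was lower. Apoa1, an apolipoprotein, was at 9.82 in epiblast array 1, 7.27 in epiblast array 2 and 2.98 and 2.92 in the ESCs (5.59, SE 0.61). Ttr, transthyretin, was at 9.82 and 6.96 against 4.41 and 4.43 (3.97), Amn, of the endocytic receptor complex, at 9.58 and 7.64 against 4.95 and 5.26 (3.51), and its partner Cubn at 8.49 and 6.86 against 3.19 and 4.22 (3.97). Spink1, a protease inhibitor, was at 9.8 and 5.73 against 4.19 and 4.78. Array 1 was the higher of the epiblast arrays for these 5 genes, by 1.62 to 4.07 on the log2 scale, and both epiblast arrays stood above both ESC arrays. Dab2, an endocytic adaptor, was nearly even between the epiblast arrays on its brightest probe set (9.15 and 8.81 against 4.86 and 5.45, 3.82). Its other probe sets differed less from the ESCs (1.63, 0.91 and 0.8). In the same order they were at 7.69 and 6.88, 5.0 and 4.96, and 5.24 and 3.95 in the epiblast arrays. Hnf4a (-0.1) and Gata4 (0.58), which also mark visceral endoderm, were not called on their brightest probe sets. The other probe sets of Hnf4a were uneven between the epiblast arrays. They stood at 6.42 and 3.54 (4.73 and 4.83 in the ESCs), 5.99 and 5.08 (5.07 and 4.86), and 3.12 and 3.66 (3.29 and 3.28). Afp, alpha-fetoprotein, depended on the probe set. The probe set that is brightest over all 32 arrays lay between 3.66 and 4.42 in the 4 arrays compared and was not called (0.15), but the other 4 probe sets of Afp were higher in the epiblast by 3.49 to 6.56, with array 1 above array 2. The brightest of them over the 4 arrays compared was at 7.45 and 4.72 in the epiblast and 2.96 and 2.23 in the ESCs (3.49, SE 0.61, adjusted p = 0.000188 by limma). With the probe sets of all genes chosen that way, an alternative chosen after seeing the data, 10 members were higher, and the summed linear values were 7.35e+03 and 1.86e+03 in the epiblast arrays and 1.42e+03 and 1.27e+03 in the ESC arrays. Hhex fell by 1.66.

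Over all tested genes, 53 of the 1095 higher genes were more than 1 higher (log2) in epiblast array 1 than in array 2, and 8 the reverse. Without epiblast array 1 the counts were 936 higher and 1380 lower, and 6 visceral endoderm genes stayed higher, while Spink1 (adjusted p = 0.251), Apob (0.411) and Gata6 (0.0988) lost their calls. Apob, which had risen by 1.44, was also not higher on the mean of its 2 probe sets (-0.026). Without epiblast array 1 Ttr was 2.54 above the ESCs and still called.

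Of 15 genes of the extraembryonic ectoderm 3 rose and 4 fell, and the summed linear values were 2.86e+03 and 3.2e+03 in the epiblast arrays and 2.77e+03 and 2.97e+03 in the ESC arrays. Of its defining genes, Cdx2 was at 4.47 and 4.2 against 3.21 and 2.56 and was not called. The 2 probe sets of Elf5, a transcription factor of this tissue, disagreed. The brighter one over all 32 arrays was at 4.41 and 4.03 against 4.06 and 3.47, near the filter level, and was not called. The other was at 8.6 and 8.87 in the epiblast and 2.37 and 3.67 in the ESCs, and this probe set was called when probe sets were chosen over the 4 arrays compared (5.71, SE 0.78, adjusted p = 1.15e-05 by limma). With that choice 4 members rose, and the summed linear values were 3.22e+03 and 3.65e+03 in the epiblast arrays and 2.79e+03 and 2.98e+03 in the ESC arrays. The part of extraembryonic ectoderm RNA in the called genes was not tested. Gata3 was at 4.04 and 3.93 against 2.83 and 0.8 and was called (2.17), a call that was lost when epiblast array 1, epiblast array 2 or ESC array 2 was left out (adjusted p between 0.0669 and 0.305). Eomes and Ascl2 (1.14) were the other members that rose, and without epiblast array 1 or ESC array 2 only Eomes did. Gata2 (-2.56), Tead4 (-2.05) and Tfap2a (-1.35) fell, and Tfap2a lost its call without epiblast array 2 or ESC array 2. On the mean of all probe sets 2 members were lower, and against the BP14A ESCs 1 was.

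Of 11 fibroblast genes, Dcn, decorin, rose from 1.41 and 1.67 to 6.78 and 6.68 (5.19) and Thy1 from 5.39 and 4.6 to 7.0 and 6.37 (1.69). Postn, periostin, fell by 1.32, a call that was lost without either epiblast array or ESC array 2. The collagen genes Col1a1 (0.39), Col1a2 (0.75) and Col3a1 (0.76) and Lum (-0.45) were not called. The summed linear values of the list were 516 and 471 in the epiblast, 337 and 249 in the ESCs and 790 and 700 in the EpiLCs. The part of other cell types in the called genes was not tested beyond these values.

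**Figure D5:**
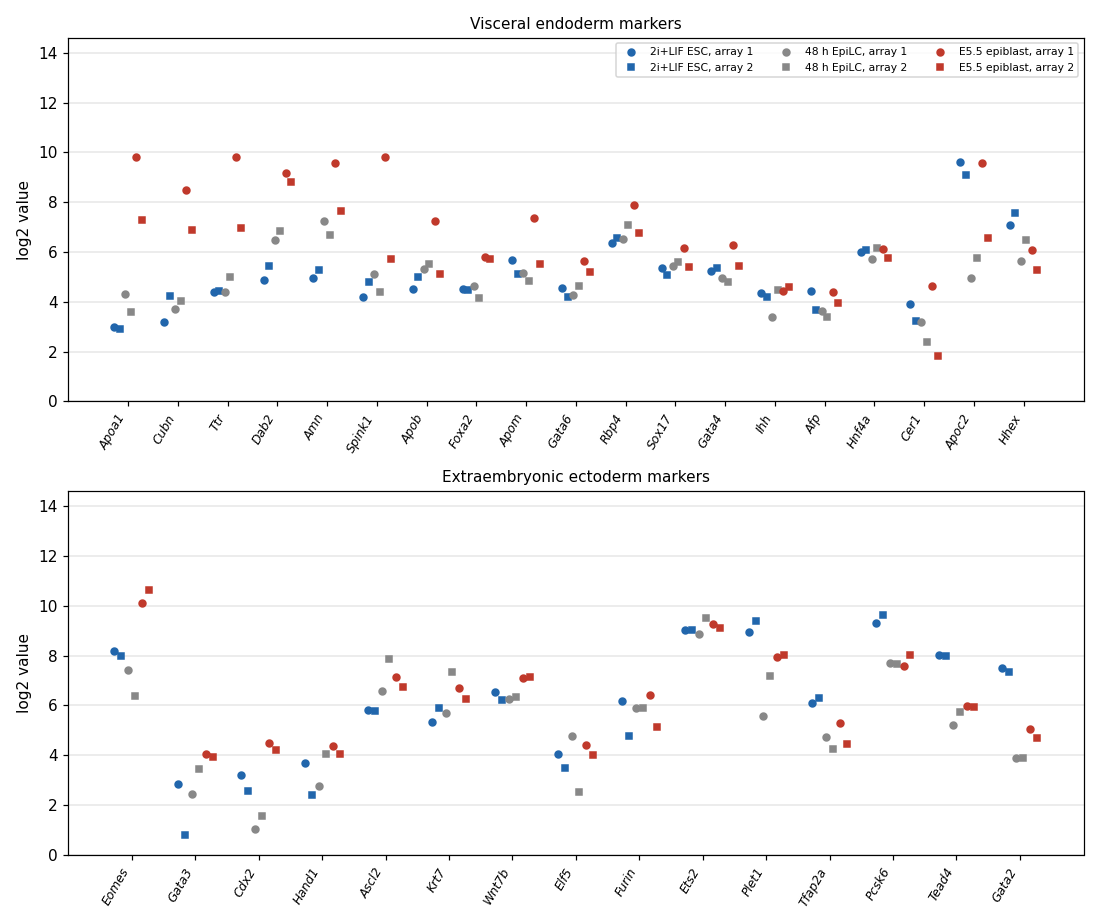
Log2 values of 19 visceral endoderm markers (top) and 15 extraembryonic ectoderm markers (bottom) in each array: blue, 2i+LIF ESCs; grey, 48 h EpiLCs; red, E5.5 epiblast; circles, array 1; squares, array 2. For Apoa1, Cubn, Ttr, Amn and Spink1 the red circle, epiblast array 1, lies above the red square, and both lie above the blue points. Each gene is drawn on its brightest probe set over the 32 arrays, which for Afp and Elf5 is a dim one in these groups.

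Against the 48 h EpiLCs the epiblast differed at fewer genes than against ESCs: 205 were higher (1.38%) and 499 lower (3.35%). The EpiLCs in turn differed from the ESCs at 1069 higher (7.19%) and 1056 lower genes (7.1%), and these comparisons share arrays. On the 10 earlier arrays alone, which leaves fewer degrees of freedom, 77 genes were higher and 214 lower in the epiblast than in the EpiLCs. Pearson's r over the tested autosomal genes was between 0.955 and 0.967 for pairs of epiblast and EpiLC arrays.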

How the data were processed

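Gene expression was read on Affymetrix expression arrays, and the authors deposited a log2 value for each of 45101 probe sets in each of 32 arrays. No summarisation or normalization method is given in the sources used here. Array medians ran from 4.62 to 4.79, and values were quantile normalised. Probe sets were named through GEO's platform annotation, with symbols updated by RefSeq (GRCm38.p6): 34945 had 1 symbol, 932 several and 9160 were not listed, and a gene took its brightest probe set by mean over the 32 arrays; the choice over the 4 arrays compared was added after seeing the data. Genes with a group mean at or above the 40th percentile (4.05) in any group were kept (15497). limma 3.58.1 (R 4.3.3) fitted 16 group means over 32 arrays with Benjamini-Hochberg adjustment over the 15497 genes. On simulated data for this comparison with 15497 genes and 200 changed, 78% of changes of 1.5 and 97% of changes of 3 (log2) were called, with 5 false calls. The simulated noise was independent between genes and arrays, and fewer genes changed than the 2500 called here. These figures check the code and give no error rate for the data. The 12 largest rises and falls and the 10 genes of each direction with the highest mean could be named (clone symbols left out), as could members of 30 lists (453 of 496 genes tested); members and lists were chosen with earlier results of these data known. Alternatives covered normalization, probe sets, filter, fit, threshold, arrays and reference; no pseudocount was needed.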

Additional observations from a re-analysis of the deposited data

How the results depend on the processing

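The alternatives below were applied one at a time. Without a fold limit 1957 genes were higher and 2326 lower than in ESCs. On the 10 earlier arrays alone 77 genes exceeded the EpiLCs and 214 lay below them. No other alternative moved these counts, or the counts of members over all 30 lists together, by more than 1.5 times. Counts in single lists did move by more: the mean of probe sets and the BP14A reference moved those given with the lists above, the earlier arrays alone and the 4 arrays alone left 1 gene of mitochondrial respiration lower in place of 3, and lists with few calls moved in other settings. With probe sets chosen by brightness over the 4 arrays compared, an alternative chosen after seeing the data, 1073 genes were higher and 1402 lower, and 97.8% of called genes were still called; among list members Afp, Elf5 and Frzb gained calls. The EpiLC counts were recomputed on the deposited values (213 and 468), the earlier arrays and the block only. Leaving out each array in turn gave 936 to 1118 higher and 1326 to 1381 lower genes, with 80 to 91 list members higher and 87 to 92 lower. Of the 2500 called genes, 96% were still called on the values as deposited, 76% on the mean of all probe sets of a gene, 82.8% with the 4 arrays fitted alone and 74% with the BP14A ESCs as the reference, where 8 were called the other way. Among genes named above, directions turned for Apob on the mean of its probe sets (-0.026). With the BP14A ESCs as the reference they turned for Dnmt3l (1.33), Egr1 (-7.30), Olig2 (3.74), Sgce (0.82) and Tcf7l1 (-0.10). Over all called genes the sign was opposite for 14 on the mean of probe sets and for 75 against the BP14A ESCs. It was opposite for 13 with probe sets chosen over the 4 arrays compared. The BP14A ESCs differ in line and background. Their Gapdh 5' minus 3' values were -2.82 and -0.76, and Eif2s3y was at 5.48 and 4.83. The cause of the turned directions was not tested.

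The labels number the arrays of every group 1 and 2, but say nothing of a shared batch, so the numbers were not taken as pairs. The deviations of epiblast and ESC arrays of the same number had r = 0.39 across genes. For some genes the arrays of a number were higher in both groups. Bnip3 was at 9.8 and 11.01 in the epiblast arrays and 7.11 and 8.06 in the ESC arrays, and Dusp6 went the other way. Leaving out 1 array shifts such differences. With the replicate number as a block 1108 genes were higher and 1423 lower than in ESCs, and 212 were higher and 501 lower than the EpiLCs. In that fit the 214 named genes that were followed kept their status as called or not called. Brightness limits what can be said of the 259 higher and 236 lower genes that were dim in one group.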
